A study of Mus musculus with 36 samples.

Results

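Pnpla3, Pnpla5, Thrsp and Mid1ip1, 4 mouse genes known for following lipogenic feeding, were read across liver and inguinal white fat (iWAT, which lies under the skin of the groin) in C57BL/6J mice on 3 diets. The genes were chosen by symbol among 16060 genes listed in at least 1 gene table, and selected on values known from these data, above all the liver log2 fold changes of Pnpla3 and Thrsp against ad libitum feeding. Of the 4 genes, 3 had a row in all 6 gene tables, and 5 of their transcripts had rows in the transcript tables. Pnpla5 had no row in the tables used here, so its levels were not analysed here.

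Pnpla3 (adiponutrin) and Pnpla5 encode patatin-like phospholipase domain proteins, relatives of the fat cell triglyceride lipase ATGL (Pnpla2), and PNPLA3 sits on lipid droplets. Thrsp encodes Spot14, a small acidic protein first known for its response to thyroid hormone and carbohydrate feeding, and Mid1ip1 encodes its closest relative (MIG12, or Spot14-related protein), which binds acetyl-CoA carboxylase and promotes its assembly into active filaments. In liver and fat, Pnpla3, Thrsp and Mid1ip1 are known targets of SREBP-1c and ChREBP, the transcription factors that carry insulin and glucose signals to fatty acid synthesis, so their transcripts fall in fasting and climb on refeeding.

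All mice had spent 16 weeks on a diet, per the labels: controls were fed ad libitum (AL), one group was calorie-restricted (CR), and another was time-restricted without calorie restriction (TR, labelled TR.al). With 6 libraries of total RNA for every diet in either tissue, there are 36 in all. An animal number stands in the titles of both CR and TR libraries, liver among them; these libraries were taken as the groups their titles give, and whether the number is right could not be checked, which bears on the CR minus TR values. Setting TR beside CR asks whether fasting alone gives the transcriptional response of CR. The labels name neither the sex and age of the mice nor the feeding hours or the hour of tissue collection, so an effect of the time since the last meal cannot be told apart from an effect of the diet. The files give the authors' comparisons of groups, with no value per library; spread within a group, the number of mice showing a direction and the depth per library are therefore unknown.

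The first group of a comparison is the one whose excess gives a positive log2 fold change. The words rose and fell are kept for genes with an adjusted p under 0.05 (the authors' FDR over all genes of a table, edgeR likelihood-ratio test). Approximate standard errors and 95% intervals were derived from the deposited statistics. The median approximate standard error over all genes was 0.142 to 0.153 in the liver tables and 0.318 to 0.366 in the iWAT tables. Liver values against AL were known when the genes were chosen, so they are given as a description, without p-values.

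The 3 measured genes lie on separate chromosomes, and the windows before their start sites are shown because the log2 fold changes against AL were above 0 for all 3 genes in both tissues, though not all passed the threshold. In GENCODE (GRCm38), Pnpla3 (ENSMUSG00000041653) spans chromosome 15 from 84167837 to 84187236 on the plus strand. Pnpla5 (ENSMUSG00000018868) lies beside it on the minus strand, from 84112356 to 84123175, with 44661 bases between the gene bodies. Thrsp (ENSMUSG00000035686) spans chromosome 7 from 97412938 to 97417730 on the minus strand, and Mid1ip1 (ENSMUSG00000008035) chromosome X from 10715013 to 10719690 on the plus strand. The sequences are RefSeq promoter windows (GRCm38.p6) of 250 bases before the start site, at chr15:84167566-84167815 (plus strand) for Pnpla3 and chrX:10717115-10717364 (plus strand) for Mid1ip1. For Thrsp, 180 of the 250 bases lie in a GENCODE exon, and only the other 70 are shown, chr7:97417731-97417800 (minus strand). Capitals mark matches on either strand to GGGCGG, a GC box, or to the CCAAT box.
Pnpla3: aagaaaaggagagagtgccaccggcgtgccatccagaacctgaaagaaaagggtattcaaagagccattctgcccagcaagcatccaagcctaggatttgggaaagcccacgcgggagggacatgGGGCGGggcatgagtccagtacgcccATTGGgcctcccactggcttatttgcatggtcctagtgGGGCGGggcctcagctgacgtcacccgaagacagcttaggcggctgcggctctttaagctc
Thrsp: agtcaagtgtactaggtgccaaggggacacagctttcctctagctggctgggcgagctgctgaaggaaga
Mid1ip1: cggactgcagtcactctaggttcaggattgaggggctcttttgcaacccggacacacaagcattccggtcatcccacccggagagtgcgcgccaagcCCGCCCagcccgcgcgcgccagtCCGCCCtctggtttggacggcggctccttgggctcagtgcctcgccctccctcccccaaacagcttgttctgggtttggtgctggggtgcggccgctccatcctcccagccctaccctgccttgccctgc

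Positions are counted back from the RefSeq start site. The Pnpla3 window held GGGCGG from -125 and from -61, and a CCAAT box on the opposite strand from -99. The Mid1ip1 window held GGGCGG on the opposite strand from -153 and from -130. The full Thrsp window held CCAAT boxes from -79 and from -52, both outside the stretch shown, and no GC box. Of 32851 RefSeq windows of the same length, 32.7% held GGGCGG and 33.8% held CCAAT. The consensus E-box CACGTG, which is also a CANNTG, was found in the Pnpla5 window alone, from -137, and 6.02% of all windows held it. The broader E-box CANNTG was found from -50 for Pnpla3 and from -247 and -113 for Thrsp, with 4 matches for Pnpla5 and none for Mid1ip1; 66.2% of all windows held it. None of the 4 windows held TCACNCCAC, a sterol regulatory element (1.05% of all windows), AGGTCA, a nuclear receptor half-site (14%), or TATAAA, the TATA box (12.4%). A match or its absence describes these letters in these windows only.

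In the liver, Pnpla3 was nearly silent in AL and well detected on both restricted diets. Its group levels, solved from the authors' deposited tables, were 0.939 CPM (read counts scaled to library size) in AL, 25.0 in CR and 22.5 in TR. AL stood alone at the low end, and CR and TR lay close together. The log2 fold change in the authors' deposited table was 4.76 for CR minus AL (approximate standard error 0.29, interval 4.19 to 5.34), a 27.2-fold difference. For TR minus AL the authors' deposited table gave 4.61 (standard error 0.34, interval 3.95 to 5.27), a 24.4-fold difference. Ranked by log2 fold change in the authors' deposited tables, Pnpla3 stood at place 4 of 12636 genes in CR and at place 5 of 12691 in TR.

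Thrsp followed the same order of diets in the liver at a far higher level. Its derived levels were 72.4 CPM in AL, 762 in CR and 638 in TR. The authors' deposited table gave a log2 fold change of 3.42 for CR minus AL (standard error 0.40, interval 2.64 to 4.19), a 10.7-fold difference. For TR minus AL the authors' deposited table gave 3.16 (standard error 0.38, interval 2.41 to 3.92), or 8.95-fold. Its places among all genes were 8 in CR and 10 in TR.

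Mid1ip1, the partner of Thrsp, differed much less between the liver groups. Its derived levels were 42.6 CPM in AL, 55.7 in CR and 77.6 in TR, so TR was the highest group. The log2 fold change in the authors' deposited table was 0.41 for CR minus AL (standard error 0.20, interval 0.01 to 0.81), or 1.33-fold. For TR minus AL the authors' deposited table gave 0.89 (standard error 0.19, interval 0.51 to 1.26), or 1.85-fold.

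Against AL in the liver, 2 of the 3 measured genes rose in CR, where 11.2% of all genes passed the threshold in either direction, and all 3 rose in TR, where 18.9% did. These counts come from the contrasts behind the choice of genes, and nothing is read from them. The CR and TR contrasts share the AL libraries. Liver hepatocyte markers (9 of 9 measured, among them Alb, the albumin gene) summed to 105300 CPM in AL, 141100 in CR and 148500 in TR. Of 6 fat cell markers, Adipoq, Plin1, Retn and Lep had no row in liver. The other 2, Fabp4 and Lipe, summed to 16.1 CPM in AL, 17.8 in CR and 21.1 in TR. Neither passed the threshold in CR liver, and Lipe rose in TR liver (0.44). In bulk tissue, fewer cells of a type and less RNA per cell cannot be told apart.

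**Figure D1:**
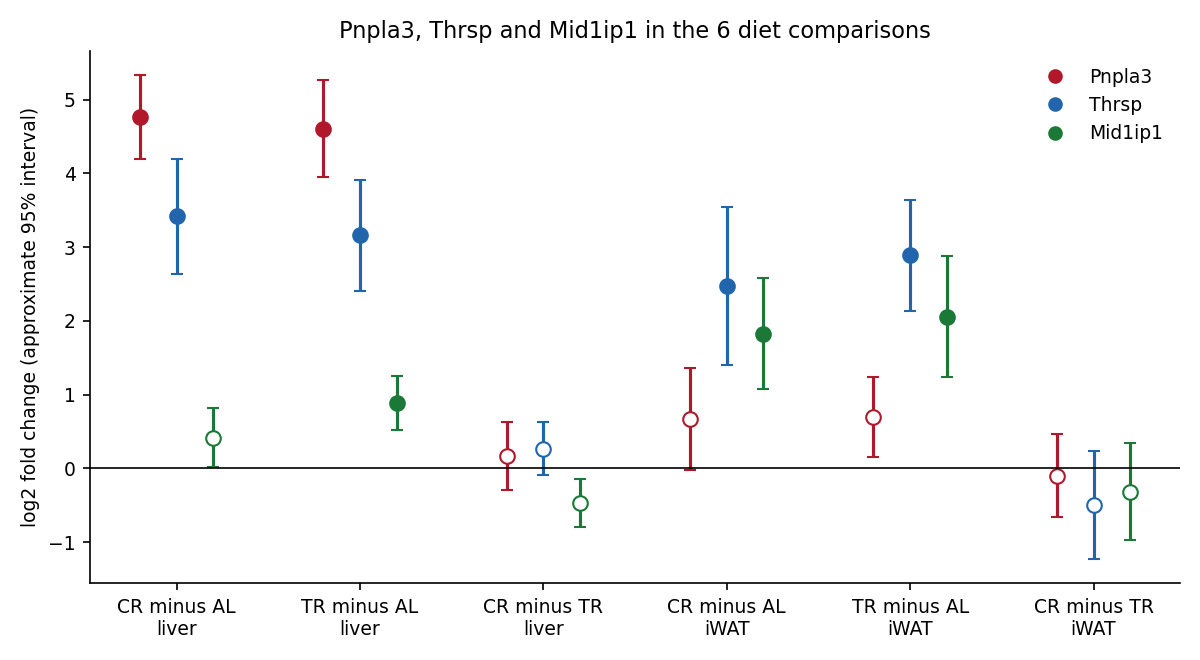
Log2 fold changes (vertical axis) of Pnpla3, Thrsp and Mid1ip1 in the 6 deposited gene comparisons (horizontal axis), with bars for the approximate 95% interval and filled points for an adjusted p under 0.05. In liver against AL the order is Pnpla3, Thrsp, Mid1ip1, in iWAT against AL it is Thrsp, Mid1ip1, Pnpla3, and all CR minus TR points are open.

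Setting CR beside TR in the liver used no AL library, and here 0 of the 3 genes passed the threshold in the authors' edgeR likelihood-ratio test, against 0.469% of all genes. At an unadjusted p under 0.05 the count was 1 of 3, which was Mid1ip1. The authors' deposited table gave Mid1ip1 a log2 fold change of -0.47 (standard error 0.17, interval -0.80 to -0.15, unadjusted p = 0.004279, edgeR adjusted p = 0.1952). For Pnpla3 the authors' deposited table gave 0.16 (interval -0.30 to 0.62, edgeR adjusted p = 0.8749). For Thrsp the authors' deposited table gave 0.26 (interval -0.10 to 0.62, edgeR adjusted p = 0.6859). The intervals thus leave room for a Pnpla3 or Thrsp difference of up to 0.62 log2 units toward CR. They do not show that the 2 diets act alike.

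In iWAT, on a scale normalized apart from that of liver, all 3 genes had higher derived levels than in liver, and the order of their log2 fold changes was different. Thrsp stood first: its derived levels were 706 CPM in AL, 3660 in CR and 4993 in TR. The authors' deposited table gave a log2 fold change of 2.47 for CR minus AL (standard error 0.54, interval 1.41 to 3.54, edgeR adjusted p = 0.0003864), or 5.56-fold. For TR minus AL the authors' deposited table gave 2.89 (standard error 0.38, interval 2.14 to 3.64, edgeR adjusted p = 2.536e-11), or 7.41-fold.

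Mid1ip1 rose beside its partner in iWAT. Derived levels were 57.1 CPM in AL, 188 in CR and 227 in TR. The log2 fold change in the authors' deposited table was 1.82 for CR minus AL (standard error 0.38, interval 1.07 to 2.57, edgeR adjusted p = 0.0001712), or 3.54-fold. For TR minus AL the authors' deposited table gave 2.05 (standard error 0.42, interval 1.23 to 2.87, edgeR adjusted p = 6.507e-05), or 4.15-fold.

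Pnpla3 was already abundant in iWAT of AL mice, and its differences did not pass the threshold. Derived levels were 602 CPM in AL, 895 in CR and 932 in TR. For CR minus AL the authors' deposited table gave a log2 fold change of 0.67 (standard error 0.35, interval -0.03 to 1.36, edgeR adjusted p = 0.2819). For TR minus AL the authors' deposited table gave 0.70 (standard error 0.28, interval 0.15 to 1.24, edgeR adjusted p = 0.08994).

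Against AL in iWAT, 2 of the 3 genes therefore rose on each diet, where 7.3% of all genes changed in CR and 10% in TR. Between CR and TR, 0 of 3 passed in the authors' edgeR likelihood-ratio test, against 0.918% of all genes, and 0 of 3 had an unadjusted p under 0.05. The CR minus TR log2 fold changes in the authors' deposited table were -0.10 for Pnpla3 (interval -0.66 to 0.46), -0.50 for Thrsp (interval -1.23 to 0.24) and -0.32 for Mid1ip1 (interval -0.97 to 0.34), each with an edgeR adjusted p of 0.9999. All 3 values were below 0, and all 3 intervals include 0.

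**Figure D2:**
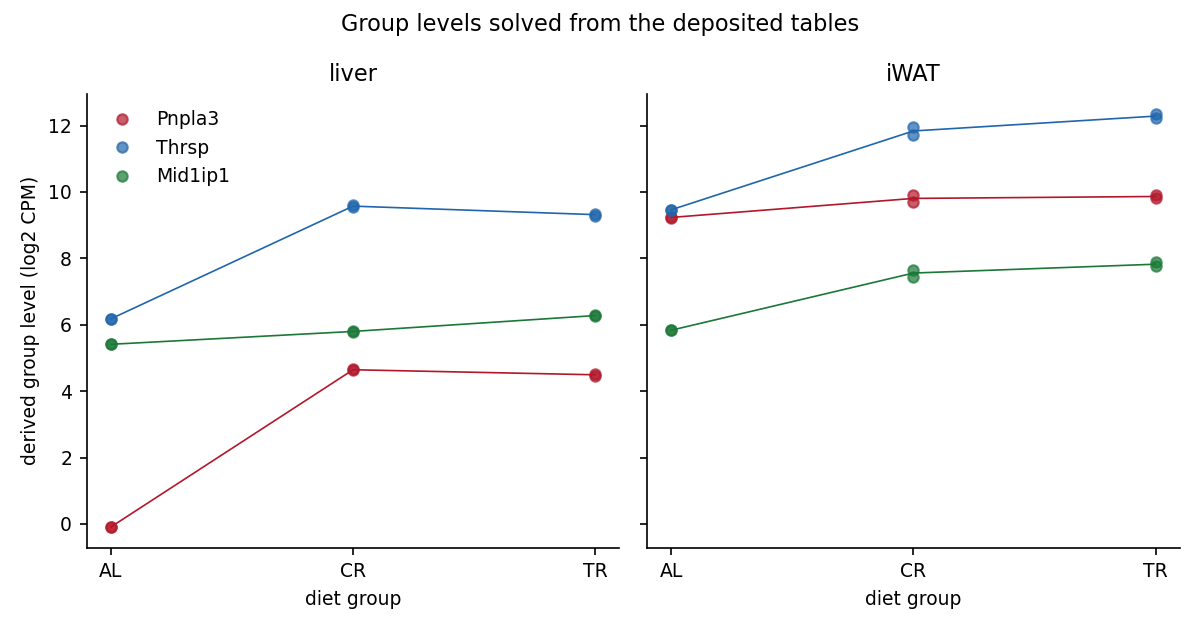
Derived group levels in log2 CPM (vertical axis) by diet (horizontal axis) in liver and iWAT; the 2 points of a gene and group are solved from the 2 deposited tables that hold the group, and lines join their means. Pnpla3 in liver goes from 0.939 CPM, the lowest level shown, to 25.0 and 22.5, while in iWAT it stays between 602 and 932.

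Per kilobase of the main transcript, the order of the genes differed between tissues. In liver of AL mice Thrsp was highest at 56.7 CPM per kilobase, Mid1ip1 followed at 21.1 and Pnpla3 was last at 0.715. In CR liver the level per kilobase was 597 for Thrsp, 27.6 for Mid1ip1 and 19.1 for Pnpla3, and in TR liver 500, 38.4 and 17.2. In iWAT of AL mice Thrsp stood at 553 CPM per kilobase and Pnpla3 at 458, with Mid1ip1 at 28.3. On the diets Thrsp drew away from Pnpla3 in iWAT, at 2866 against 682 in CR and 3910 against 710 in TR, and Mid1ip1 stood at 93.3 and 112. Without values per library, neighbouring levels in these orders could not be tested.

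The gap between tissues was widest for Pnpla3 and narrowed on the diets. Its derived CPM in iWAT was 641 times that in liver in AL, 35.8 times in CR and 41.4 times in TR. For Thrsp the iWAT level was 9.74 times the liver level in AL, 4.80 times in CR and 7.83 times in TR. For Mid1ip1 the ratio went the other way, from 1.34 in AL to 3.38 in CR and 2.92 in TR. The tissues were normalized separately, so these ratios describe levels set across tables. The log2 fold change against AL in iWAT less that in liver was -4.10 in CR (interval -5.00 to -3.20) and -3.91 in TR for Pnpla3. It was -0.94 in CR (interval -2.26 to 0.38) and -0.27 in TR (interval -1.34 to 0.79) for Thrsp, and 1.41 (interval 0.56 to 2.26) and 1.17 (interval 0.27 to 2.07) for Mid1ip1. The liver values behind these differences chose the genes, so they carry no test. The intervals take the tissues as uncorrelated, although most mice gave both.

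Markers of other cell types moved with the diets in iWAT. Of 9 hepatocyte markers, which should be near 0 in fat, 7 fell in CR against AL (median log2 fold change -3.83). In TR against AL, 0 of 9 passed in the authors' edgeR likelihood-ratio test (1 at an unadjusted p under 0.05), with a median of 2.17. Their summed level in iWAT was 1062 CPM in AL, 189 in CR and 6400 in TR. The highest of these markers stood at 1.67% of its liver level in AL, 0.325% in CR and 6.33% in TR. At that share, liver RNA would carry 40.4 of the 4993 CPM of Thrsp in TR iWAT, or 0.809%. For Mid1ip1 it would carry 4.91 of 227 CPM in TR, or 2.17%, and for Pnpla3 at most 0.153% in any iWAT group. These shares assume carried RNA of the mean liver composition on that diet, across tissues normalized apart. The part of liver RNA in the iWAT values was not tested.

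The fat cell markers of iWAT, Adipoq, Plin1, Retn, Fabp4, Lep and Lipe, summed to 19250 CPM in AL, 18860 in CR and 23210 in TR. In CR, 0 of these 6 passed in the authors' edgeR likelihood-ratio test (1 at an unadjusted p under 0.05), and in TR, Retn and Fabp4 rose and Lep fell. All 5 brown and beige fat markers, among them Ucp1, the uncoupling protein of thermogenic fat, rose on both diets, with medians of 4.08 in CR and 3.02 in TR, and summed to 44.0, 469 and 437 CPM in AL, CR and TR. Of 9 skeletal muscle markers, 0 passed in CR (0 at an unadjusted p under 0.05, median 1.22). In TR, 4 of the 9 fell (9 at an unadjusted p under 0.05, median -2.94). The muscle markers summed to 2392, 5206 and 319 CPM in AL, CR and TR. Lymphocyte markers summed to 541, 889 and 800 CPM. The macrophage and Kupffer cell markers (Adgre1, Cd68, Csf1r, Clec4f and Lyz2), a list that includes liver macrophages, summed to 1026, 750 and 732. Both lists had 0 calls in the authors' edgeR tables. At an unadjusted p under 0.05 no lymphocyte marker passed, while 4 of 5 macrophage and Kupffer cell markers did in CR and 2 of 5 in TR. The log2 fold changes of these 5 ran from -2.94 to -0.27 in CR and from -0.92 to 1.61 in TR. Of the mammary epithelium markers, Krt14, Csn3 and Wap had no row in iWAT, and Krt8 had none in CR. The measured ones summed to 4.6 CPM in AL, 1.56 in CR (without Krt8) and 9.57 in TR. Against AL, 0 of them passed on either diet (1 at an unadjusted p under 0.05 in CR and 0 in TR). The part of beige fat, muscle and immune cells in the Thrsp and Mid1ip1 values was not tested.

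The transcript tables show which annotated transcripts carried the values; transcripts share libraries and reads with their gene. Pnpla3 had 1 transcript with rows, Pnpla3-201, a protein-coding transcript of 8 exons. Its log2 fold changes in the authors' deposited transcript tables were 4.75 in CR liver and 4.61 in TR liver, and 0.64 and 0.71 in iWAT, each against AL.

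Thrsp had 2 transcripts whose log2 fold changes differed in size in the liver. Thrsp-201 is the coding transcript of 2 exons, and Thrsp-202 is annotated as a retained intron, a single exon of 1400 bases. In the liver, the authors' deposited transcript tables gave Thrsp-201 a log2 fold change of 3.48 for CR and 3.24 for TR. For Thrsp-202 the authors' deposited transcript tables gave 1.96 in CR and 1.59 in TR, of which the second did not pass the threshold. The difference between the transcripts was thus 1.52 and 1.65 log2 units in liver. It was not tested, and the approximate intervals of the transcripts overlapped in both comparisons. In iWAT, where it was 0.29 in CR and 0.70 in TR, Thrsp-202 had 2.14 (edgeR adjusted p = 0.02315) and 2.21 (edgeR adjusted p = 0.01443) in the authors' deposited transcript tables.

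The Thrsp-202 share of the derived Thrsp level was 8.16% in AL liver, 3% in CR liver and 2.75% in TR liver. In iWAT it was 1.2%, 0.979% and 0.743% in AL, CR and TR. Thrsp-202 itself went from 5.94 CPM in AL liver to 22.7 in CR and 17.6 in TR. RSEM divides reads that fit both transcripts, and without values per library the shares carry no error.

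Mid1ip1-201 and Mid1ip1-202 have the same first exon and differ only in that exon 2 starts 3 bases earlier in Mid1ip1-202. They moved nearly together. In liver the log2 fold changes in the authors' deposited transcript tables were 0.37 and 0.88 (CR and TR) for Mid1ip1-201 and 0.50 and 0.91 for Mid1ip1-202. In iWAT the authors' deposited transcript tables gave 1.83 and 2.15 for Mid1ip1-201 and 1.67 and 1.82 for Mid1ip1-202. Mid1ip1-202 held 23.1% to 27.9% of the derived level in every group, a split that rests on reads across a 3-base difference.

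**Figure D3:**
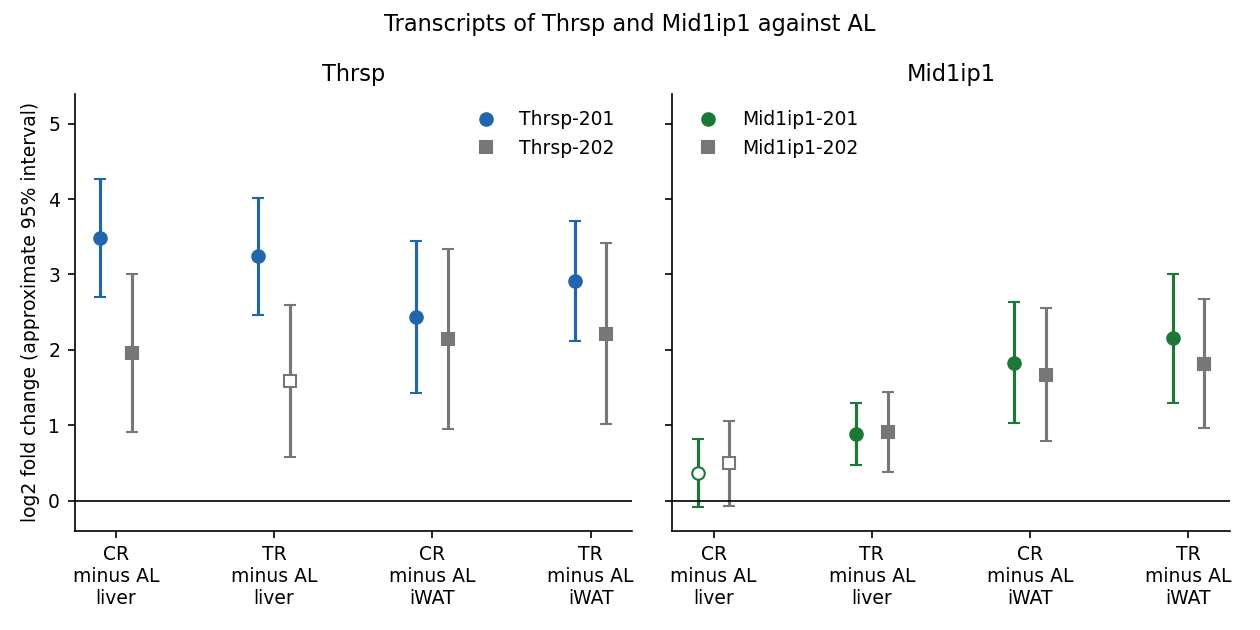
Log2 fold changes against AL (vertical axis) of the 2 transcripts of Thrsp and of Mid1ip1 in liver and iWAT (horizontal axis), with approximate 95% intervals and filled points for an adjusted p under 0.05. In liver the retained-intron transcript Thrsp-202 lies 1.52 and 1.65 log2 units below the coding transcript, and the Mid1ip1 transcripts lie close together.

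The other genes of the pathway were read from 5 lists, 70 genes in all, chosen with earlier results of these data known. Most of the fatty acid synthesis enzymes and partners, beside which Spot14 and MIG12 act, rose in both tissues. Of 12 measured in liver, 7 rose and 0 fell in CR (median log2 fold change 0.95), and 8 rose and 0 fell in TR (median 0.98). Elovl6, a fatty acid elongase, had 1.61 in CR and 1.83 in TR, and Acaca, the cytosolic acetyl-CoA carboxylase, had 1.07 and 1.21, in the authors' deposited tables of liver. In iWAT, 9 rose and 0 fell in CR (median 2.45), and 10 rose and 1 fell in TR (median 2.63). The gene that fell was Mid2, a relative of the MIG12 partner Mid1, with -1.01 (edgeR adjusted p = 0.04487) in the authors' deposited table. There Acss2, which makes acetyl-CoA from acetate, had 3.53 in CR (edgeR adjusted p = 4.104e-19) and 3.70 in TR (edgeR adjusted p = 8.896e-28) in the authors' deposited tables. Slc25a1, the mitochondrial citrate carrier, had 2.91 in CR (edgeR adjusted p = 5.566e-08) and 3.43 in TR (edgeR adjusted p = 7.487e-20) in the authors' deposited tables of iWAT. The median of all genes lay between -0.04 and 0.02 in every gene table. For the counts of all 5 lists, the share of all genes called against AL in liver was 11.2% in CR and 18.9% in TR. In iWAT that share was 7.3% in CR and 10% in TR.

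The PNPLA relatives and lipolysis partners did not share a direction. Of 10 measured in liver, 3 rose and 2 fell in CR (median 0.09), and 5 rose and 2 fell in TR (median 0.26). G0s2, an inhibitor of ATGL, rose by 1.21 in CR and 1.57 in TR in the authors' deposited tables of liver. Abhd6, a monoacylglycerol lipase, rose by 0.51 and 0.60 there, and Pnpla7, a lysophospholipase of the family, had -0.32 and -0.44 in the same authors' deposited tables. Hilpda, another ATGL inhibitor, rose on both diets (0.73 and 0.81), and Pnpla2, the gene of ATGL, had -0.52 in CR, where it fell, in the authors' deposited tables of liver. Also past the threshold in TR liver were Pnpla6 (0.37), Lipe, the hormone-sensitive lipase (0.44), and Pnpla8 (-0.37) in the authors' deposited table. In iWAT 1 of 10 fell in CR, Hilpda (-1.03, edgeR adjusted p = 0.03992 in the authors' deposited table), and 1 rose in TR, Abhd6 (0.92, edgeR adjusted p = 0.009985 in the authors' deposited table), with medians of -0.09 and -0.15. Both counts are near the share of all genes called there (7.3% in CR and 10% in TR), and nothing is read from them.

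Among the lipogenic regulators, Srebf1, which encodes SREBP-1, rose in liver by 1.69 in CR and 1.94 in TR, and Mlxipl, which encodes ChREBP, by 0.63 and 0.69, in the authors' deposited tables. Of the 16 genes measured, 3 rose and 2 fell on each diet in liver, with medians of -0.08 in CR and 0.01 in TR. Insig2, which retains SREBP precursors in the endoplasmic reticulum, had -0.98 in TR liver in the authors' deposited table. Thra, a thyroid hormone receptor gene, fell on both diets (-0.59 and -0.44), Srebf2 fell in CR (-0.53), Insig1 rose in CR (0.57) and Usf2 rose in TR (0.34), in the authors' deposited tables of liver. In iWAT, 2 of 16 rose and 0 fell on each diet (medians 0.22 and 0.19), a share near that of all genes called there (7.3% in CR and 10% in TR). They were Insig1, an SREBP target and feedback inhibitor, with 2.56 in CR (edgeR adjusted p = 1.276e-08) and 2.74 in TR (edgeR adjusted p = 6.115e-16) in the authors' deposited tables, and Mlx, the partner of ChREBP, with 1.12 (edgeR adjusted p = 0.002933) and 1.47 (edgeR adjusted p = 5.781e-05). Srebf1 passed on neither diet in iWAT, with 0.82 in CR (edgeR adjusted p = 0.1743) and 0.88 in TR (edgeR adjusted p = 0.1324) in the authors' deposited tables. Nor did Mlxipl, with 0.75 in CR (edgeR adjusted p = 0.1869) and 0.65 in TR (edgeR adjusted p = 0.2362).

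Genes of carbohydrate feeding moved in part. Of 14 measured in liver, 5 rose and 1 fell in CR (median 0.19), and 5 rose and 2 fell in TR (median 0.26). Pklr, the liver pyruvate kinase and a ChREBP target, rose by 1.47 in CR and 1.42 in TR, while Gpd1, which makes glycerol 3-phosphate, had -0.84 and -0.86, in the authors' deposited tables of liver. Khk, the fructokinase, rose by 0.72 and 0.97, Tkfc, the triokinase of the same route, by 0.68 and 0.89, and Tkt by 0.60 and 0.78, in the authors' deposited tables of liver. Pgd rose in CR (0.45) and Dio1, a deiodinase gene, fell in TR (-0.66), in the authors' deposited tables. In iWAT, 3 of 10 measured rose and 1 fell in CR (median 0.74), and 6 of 14 rose and 0 fell in TR (median 1.53). These medians cover different sets of genes and are not to be compared. Pklr and Gckr, for example, had a row against AL in TR but not in CR. Their derived levels in TR and AL were 9.76 and 1.01 CPM for Pklr, and 6.94 and 1.65 for Gckr. Tkt, the transketolase of the pentose phosphate pathway, had 2.61 in CR (edgeR adjusted p = 2.036e-05) and 2.94 in TR (edgeR adjusted p = 3.342e-15) in the authors' deposited tables of iWAT. Taldo1 (1.37 and 1.55) and Pgd (1.34 and 1.50) of the same pathway rose on both diets, and Gpd1 (1.43) and G6pdx (1.00) rose in TR, in the authors' deposited tables. The hepatocyte markers stood at medians of -3.83 in CR and 2.17 in TR in these comparisons, and their part in the list's values was not tested.

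Triglyceride assembly and lipid droplet genes were divided. In liver, 3 rose and 3 fell of 16 in CR (median 0.06), and 4 rose and 3 fell in TR (median 0.00). Cidec, a droplet fusion protein, had -2.65 in CR and -2.85 in TR, Plin4, a droplet coat protein, had -1.48 and -1.01, and Mogat1, a monoacylglycerol acyltransferase, had -1.56 and -1.13, in the authors' deposited tables of liver. Agpat2 (0.62 and 0.64), Dgat2 (0.49 and 0.67) and Gpat4 (0.35 and 0.38), enzymes of triglyceride assembly, rose on both diets and Gpat3 (0.65) in TR, in the authors' deposited tables of liver. In iWAT, 4 of 16 rose and 1 fell in CR (median 0.37), and 5 of 17 rose and 1 fell in TR (median 0.79). Here too the medians cover different sets of genes. Agpat2 had 2.55 in CR (edgeR adjusted p = 6.04e-06) and 2.78 in TR (edgeR adjusted p = 3.493e-14) in the authors' deposited tables of iWAT. Dgat1, which makes triglyceride, and Plin2, a droplet coat protein, rose on both diets (1.15 and 1.64, and 1.22 and 1.47) in the authors' deposited tables. Gpam rose in CR (1.02), and Mogat1 (1.22) and Lpin1 (0.97) rose in TR, in the authors' deposited tables of iWAT. Hsd17b13 fell in CR (-5.36) and Plin4 fell in TR (-1.40), in the same authors' deposited tables. In CR against AL, 7 of 9 hepatocyte markers fell as well (median -3.83), and their part in the Hsd17b13 value was not tested. Between CR and TR in iWAT, 0.918% of all genes passed the threshold, 126 of them lower in CR and 9 higher. Of the 66 pathway genes measured there, 4 fell and 0 rose, the same main direction as over all genes. Among these 4 were Pklr (-6.51), Hsd17b13 (-7.48) and Cideb (-3.57) in the authors' deposited table, genes that hepatocytes express. Beside them, all 9 hepatocyte markers fell in the same comparison (median log2 fold change -6.00). The part of hepatocyte RNA in the values of these genes was not tested.

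Over all lists, 21 of 68 genes rose and 8 fell in liver in CR, and 25 of 68 rose and 9 fell in TR, where 11.2% and 18.9% of all genes passed the threshold in either direction. In iWAT, 18 of 64 rose and 3 fell in CR, and 24 of 69 rose and 2 fell in TR, against 7.3% and 10% of all genes. No listed gene had a higher log2 fold change than Pnpla3 or Thrsp in liver against AL, which the choice of both genes on these values largely fixes. In iWAT, 9 of 64 genes lay above Thrsp in CR and 6 of 69 in TR, Elovl6, Acss2 and Slc25a1 among them, and 25 of 64 and 36 of 69 lay above Pnpla3. Above Mid1ip1 lay 24 and 13 of 68 genes in liver (CR and TR), and 12 of 64 and 17 of 69 in iWAT.

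**Figure D4:**
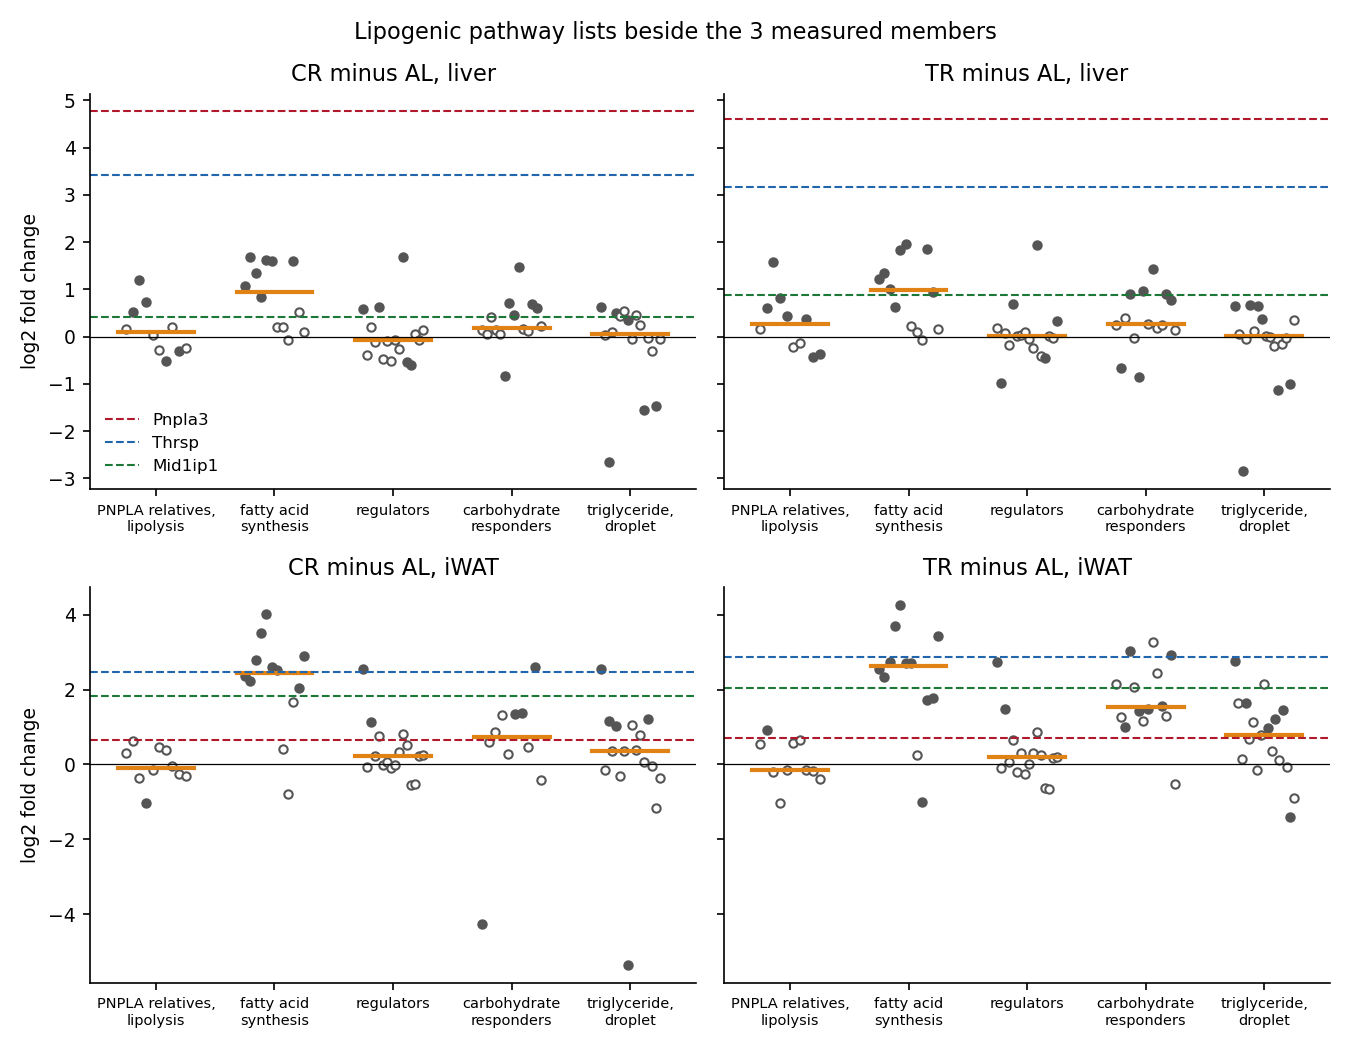
Log2 fold changes against AL (vertical axis) of the genes of 5 pathway lists (horizontal axis), a panel for each diet and tissue; filled points have an adjusted p under 0.05, orange bars are list medians and dashed lines are the 3 members. The Pnpla3 and Thrsp lines lie above every listed gene in liver, which the choice of both genes on these values largely fixes. In iWAT the Pnpla3 line lies within the lists, with 25 of 64 genes above it in CR and 36 of 69 in TR.

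The genes most like each member were found by the Euclidean distance over the 4 log2 fold changes against AL (CR and TR in liver and iWAT), among 10194 genes whose log2 mean CPM was 1 or more in all 4 tables, as a description. The members themselves were left out of this ranking. Outside the members, no gene lay near Pnpla3: the closest was Orm2 at 3.78 log2 units, and Pcp4l1 at 3.99 and Cry1 at 4.05 were also among the 4 closest. For Thrsp they were Orm2 at 2.09, Fasn (fatty acid synthase) at 2.18, Acacb (mitochondrial acetyl-CoA carboxylase) at 2.59 and Lrtm1 at 2.65. Mid1ip1 had close neighbours in this measure: Sorl1 at 0.28, Tecr, an enzyme of fatty acid elongation, at 0.36, Scd2, a fatty acid desaturase, at 0.38, and Sbk1 at 0.46. The 4 values of Scd2 in the authors' deposited tables were 0.52 and 0.95 in liver and 2.04 and 1.77 in iWAT (CR and TR). The comparisons of a tissue share the AL libraries, so likeness between CR and TR values is in part built in. Pnpla3 and Thrsp were chosen on their liver values, so their distance from other genes is largely built in as well.

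Genes beside Pnpla3 and Thrsp on the chromosome had smaller log2 fold changes in liver, a contrast that the choice of Pnpla3 and Thrsp on their liver values largely fixes. Within 250 kilobases of the Pnpla3 start site, 3 genes were measured in liver and 0 passed in the authors' edgeR likelihood-ratio test. Samm50, a mitochondrial outer membrane assembly protein, starts 24.4 kilobases downstream and had 0.15 in CR (standard error 0.12) and 0.23 in TR (standard error 0.12) in the authors' deposited tables of liver. Parvb, 64.2 kilobases downstream, had 0.18 and 0.09 there, and Parvg, at 156.2 kilobases, had 0.07 and -0.15 in the same authors' deposited tables. At an unadjusted p under 0.05 the count was 0 of 3 in CR and 1 of 3 in TR, which was Samm50. Around Thrsp, 7 genes were measured in liver, with log2 fold changes from -0.53 to 0.44 in CR and from -0.61 to 0.41 in TR. Ndufc2, a subunit of respiratory complex I that starts 17.7 kilobases downstream of Thrsp, rose on both diets (0.44 and 0.41), and Ints4, an Integrator subunit whose start lies at -63.2 kilobases (upstream), had -0.31 in TR, where it fell, in the authors' deposited tables of liver. In iWAT the measured neighbours of Pnpla3 lay on both sides of its values, which were 0.67 in CR and 0.70 in TR. Parvg had 1.35 and 1.13, Samm50 had 0.46 and 0.63, and Parvb had -0.42 and -0.41, in the authors' deposited tables. None of these, nor Pnpla3, passed the threshold in iWAT. Near Thrsp in iWAT, Aamdc rose on both diets (0.79, edgeR adjusted p = 0.02466, and 1.07, edgeR adjusted p = 0.003707) and Ndufc2 rose in TR (0.90, edgeR adjusted p = 0.02629), in the authors' deposited tables. Within the same distance of Mid1ip1, Tspan7 was the measured gene, at 0.19 in CR and 0.09 in TR in the authors' deposited tables of liver.

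**Figure D5:**
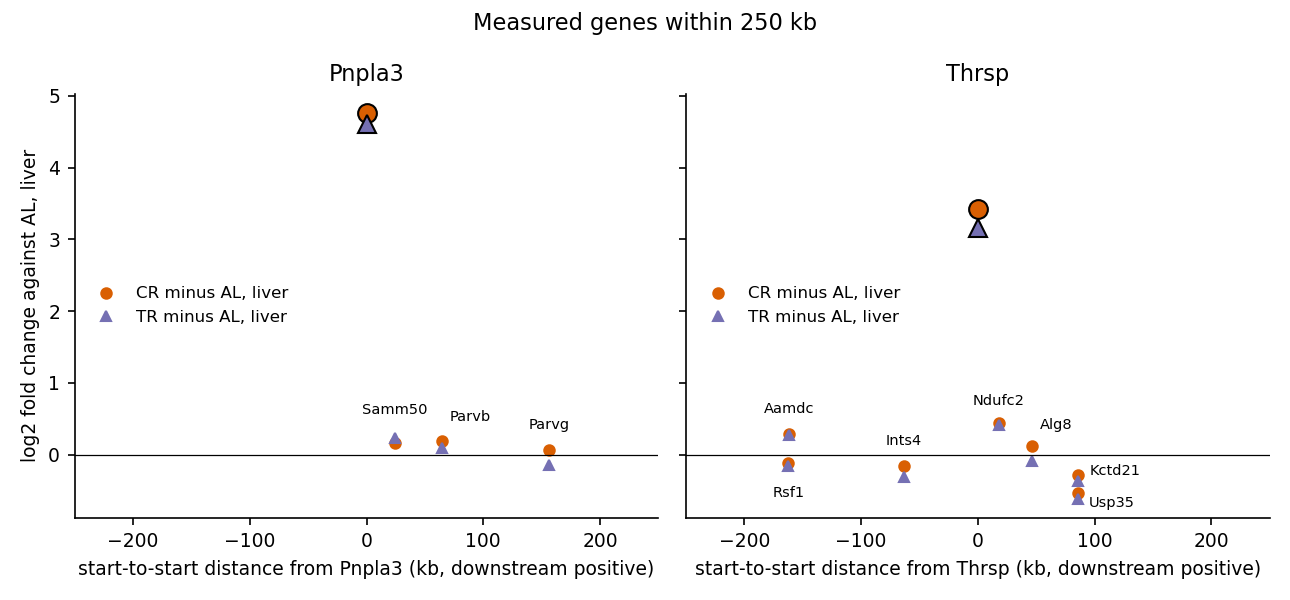
Log2 fold changes against AL in liver (vertical axis) of measured genes within 250 kilobases of Pnpla3 and of Thrsp, by distance between start sites (horizontal axis, kilobases, downstream positive); large outlined symbols at 0 are Pnpla3 and Thrsp themselves. The neighbours lie between -0.61 and 0.44, below Pnpla3 at 4.76 and 4.61 and Thrsp at 3.42 and 3.16.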

How the data were processed

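Total RNA of mouse liver and iWAT was sequenced by the authors, with 6 libraries per diet and tissue; the extraction used Trizol and libraries Illumina TruSeq, per the labels' protocols. Per the submitters' processing notes, bcl2fastq 2.20, STAR 2.5.3a and RSEM (version not given) were used with GRCm38.p5. The 12 deposited tables (6 of genes, 6 of transcripts) hold 1 comparison of 2 groups each from the authors' edgeR models, per the file headers; no source used here names the authors' edgeR version, their filter, the normalization or the annotation release. On a log2 scale the authors deposited a fold change and a mean CPM for each feature. As a score they deposited the likelihood-ratio statistic, per the file headers. The authors deposited the unadjusted p-value and the FDR. Each table was fitted on its own, and depth per library is unknown, so no interval from counts is given.

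Deposited values were used as they stand, and the test was 2-sided, at an FDR under 0.05 across each whole table; models of counts planned for count tables were not run. For an approximate standard error, the absolute log2 fold change was divided by the root of the likelihood-ratio statistic, which treats that statistic as chi-square with 1 degree of freedom. Group levels were solved from the log2 mean CPM and log2 fold change of a table, and the 2 tables of a group were averaged; they differed by at most 0.06 log2 units for the members in liver and 0.21 in iWAT. The computation was tested on simulated data. Positions came from GENCODE M21 (GRCm38) and promoters from RefSeq (GRCm38.p6), where all 4 members matched by symbol. Python 3.11.15, pandas 2.3.3 and scipy 1.17.1 were used. The members and gene lists were chosen with earlier results of these data known. Named genes are the members, the 3 genes of a pathway list with the smallest FDR in a comparison (of which some are printed), marker genes, and the 4 genes most like a member; genes named for a count of 5 or fewer, neighbours on the chromosome and values of Scd2 were chosen after their values were seen. A few genes that fall under this rule are not reported here.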

Additional observations from a re-analysis of the deposited data

How the results depend on the processing

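The 6 counts of members past the threshold stayed within 1.5 times their reported value under the 6 alternatives run: an FDR of 0.01 or 0.1, an added fold of at least 2, a filter at a log2 mean CPM of 1 with the FDR recomputed, centring on the median of all genes, and the main transcript in place of the gene. At an FDR of 0.1, Pnpla3 entered the TR minus AL count in iWAT (3 in place of 2), and with a fold of at least 2, Mid1ip1 left the TR minus AL count in liver (2 in place of 3). The 18 log2 fold changes of the members kept their direction under centring and in the main transcript, and the 6 CR minus TR values kept theirs when taken as CR minus AL less TR minus AL. Of 30 list counts, tried after the data were seen, 8 were lower by over 1.5 times at an FDR of 0.01 and 1 was higher at 0.1. The genes called among PNPLA relatives and lipolysis partners went from 5 to 2 in CR liver, from 7 to 3 in TR liver and from 1 to 0 in CR iWAT at 0.01, and from 1 to 3 in TR iWAT at 0.1. Lipogenic regulators went from 5 to 3 in liver on each diet, and triglyceride and droplet genes from 5 to 3 in CR iWAT, at 0.01. Between CR and TR in iWAT, the carbohydrate genes and the triglyceride and droplet genes each went from 2 to 0 at 0.01. The filter left all 30 within 1.5 times. No paired analysis was possible because the deposited tables hold comparisons of groups without values per library, and leaving out each replicate was not run for the same reason. Depth per library is unknown, so it is not known how much of the AL liver level of Pnpla3, under 1 CPM, rests on few reads.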
